A study of Mus musculus with 4 samples.

Results

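The genes described here encode the parts of the ubiquitin system: ubiquitin-activating (E1), conjugating (E2) and ligase (E3) enzymes, the deubiquitinases that reverse their work, and the subunits of the proteasome. Members were taken by gene symbol (Psma to Psmg, Uba, Ube2 to Ube4, Fbx, Cul, Rnf, Trim, Herc, Nedd4, Huwe1, Usp, Uchl and Otud, each with its number where the family has one), without pseudogene names and with a mean level of at least 1 over the 4 samples. 124 symbols matched and 121 passed the minimum, out of 4845 genes at that level and 5282 genes in the table. The 121 comprise 2 Uba genes, 17 E2 genes, 71 E3 genes, 20 deubiquitinase genes and 11 proteasome genes. Trim25, with a mean level of 2.26, and Herc6, with 1.94, were the lowest inside the minimum. Usp18 (0.398), Trim54 (0.338) and Trim30d (0.283) were below it. All 121 are protein-coding genes in GENCODE M21.

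RNA came from dissected cortex and corpus callosum at postnatal day 15. 2 samples were Pdgfra-creER;SmoM2 and 2 were wild type (WT), and all 4 had tamoxifen from postnatal day 5 to 7. SmoM2 is an active form of Smoothened, and Pdgfra-creER is an inducible recombinase driven by the promoter of Pdgfra, which precursors of oligodendrocytes and fibroblasts express, so that many cells of the dissected tissue are of types the driver does not target. Whether the samples of a group are separate animals, and whether the WT mice carried the driver, is stated by no source used here, so the p-values measure only the spread between these samples.

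Ubiquitin is activated by an E1, handed to an E2 and joined to a substrate by an E3, which chooses the substrate. RING ligases (most Rnf and Trim proteins, and the cullin complexes, which in the case of Cul1 hold the substrate through an F-box protein) bring the E2 to the substrate, while HECT ligases carry ubiquitin themselves. Chains of some linkages send a protein to the proteasome, whose barrel-shaped core is opened by caps, and deubiquitinases trim or remove the chains; in neurons and oligodendrocytes this system turns over synaptic, cytoskeletal and cell cycle proteins.

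The authors' deposited table holds genes selected on these same samples, with a highest unadjusted p of 0.05, so a member has a row because its unadjusted p was small. Adjusted p there reaches 0.540 over the table and 0.531 over the members, so a row alone does not show a difference. The share of members called is set beside that of all table genes. A gene is called, and is said to have risen or fallen, where the adjusted p in that table is at most 0.05. The levels appear, from their values, to be scaled per length and per library, and nothing states whether they are TPM or FPKM; they sum to between 469062 and 512833 per sample over the table, and read depth is unknown. Smo rose, with levels of 10.7 and 11.0 in SmoM2 and 7.12 and 5.75 in WT (log2 fold change 0.65, adjusted p 0.00146 in the authors' deposited table). Markers of several cell types moved as well: 8 of 8 mature oligodendrocyte markers fell (summed level, here and below over the markers with a row, 2935 and 3301 in SmoM2, 6118 and 5749 in WT), and 5 of the 6 meningeal fibroblast markers rose (75.1 and 72.1 against 38.5 and 29.5). Of these fibroblast markers, Col3a1 had levels that overlapped between groups, 14.5 and 6.97 in SmoM2 and 4.85 and 7.0 in WT. All 5 blood markers fell (65.6 and 120.4 against 662 and 449.8), as did 4 of the 5 choroid plexus markers, whose sum was 74.9 and 627 in SmoM2 and 1217 and 1180 in WT. The part of these cell types in the results that follow was not tested, and in bulk tissue fewer cells of a type and less RNA per cell cannot be told apart.

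The members split by the base composition of their transcripts, and 4 pairs of coding stretches show how that looks in sequence. For E2 enzymes, proteasome regulators, cullins and TRIM proteins, the member with the largest fold change in each direction was taken, and the start of its longest coding exon is printed in frame, 5′ to 3′ on the coding strand. Each stretch is 120 bases (40 codons), or 111 bases (37 codons) in Psme1. Capitals mark a G or C at the third position of a codon. The sequences are of GRCm38, with GENCODE M21 exons.
Ube2v2, lower in SmoM2, chr16:15581086-15581205, minus strand: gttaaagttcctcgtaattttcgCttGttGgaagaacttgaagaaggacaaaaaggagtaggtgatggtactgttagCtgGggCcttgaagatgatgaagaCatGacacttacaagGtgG
Ube2s, higher, chr7:4808365-4808484, minus strand: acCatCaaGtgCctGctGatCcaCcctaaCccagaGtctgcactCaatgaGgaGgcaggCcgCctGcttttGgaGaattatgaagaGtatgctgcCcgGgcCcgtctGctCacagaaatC
Psme4, lower, chr11:30810783-30810902, plus strand: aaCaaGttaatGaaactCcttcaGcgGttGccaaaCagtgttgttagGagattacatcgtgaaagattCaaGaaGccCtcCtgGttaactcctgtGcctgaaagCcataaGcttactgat
Psme1, higher, chr14:55579931-55580041, plus strand: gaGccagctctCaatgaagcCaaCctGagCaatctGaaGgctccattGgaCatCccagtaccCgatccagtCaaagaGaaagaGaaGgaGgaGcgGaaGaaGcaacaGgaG
Cul5, lower, chr9:53617891-53618010, minus strand: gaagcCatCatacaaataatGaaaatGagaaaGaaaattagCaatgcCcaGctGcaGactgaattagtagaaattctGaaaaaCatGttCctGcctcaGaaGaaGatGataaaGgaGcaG
Cul7, higher, chr17:46651445-46651564, plus strand: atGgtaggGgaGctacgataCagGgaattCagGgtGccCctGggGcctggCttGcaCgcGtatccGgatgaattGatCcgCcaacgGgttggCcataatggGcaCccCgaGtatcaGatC
Trim59, lower, chr3:69037886-69038005, minus strand: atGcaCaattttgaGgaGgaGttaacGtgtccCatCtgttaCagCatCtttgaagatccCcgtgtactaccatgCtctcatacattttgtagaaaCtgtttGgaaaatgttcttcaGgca
Trim67, higher, chr8:124793901-124794020, plus strand: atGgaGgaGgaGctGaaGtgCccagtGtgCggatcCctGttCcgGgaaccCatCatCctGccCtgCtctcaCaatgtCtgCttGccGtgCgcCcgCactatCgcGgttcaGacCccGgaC
Codons ending in G or C numbered 10 of 40 in Ube2v2 and 25 of 40 in Ube2s, 18 of 40 in Psme4 and 23 of 37 in Psme1, 22 of 40 in Cul5 and 27 of 40 in Cul7, and 16 of 40 in Trim59 and 33 of 40 in Trim67. In each pair the member that was higher in SmoM2 has the larger share.

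By the authors' values more members were lower than higher in SmoM2, with small differences, among genes that have a row because of a small unadjusted p. Of the 121 members, 48 had a higher and 73 a lower value in SmoM2, so that 60.3% were lower against 47.5% of the 4845 table genes. 43 members (35.5%) were called, against a background of 38.9% of the table genes. 14 members rose, where 22.0% of the table genes did (11.6% of the members), and 29 fell, or 24.0%, where the background is 16.9%. The share called is thus close to that of the table, with a smaller share rising and a larger share falling. Which direction has more members depends on the test and the scaling. In limma on log2(level + 1) with the levels as deposited the balance turns: 41 members were higher and 22 lower at an unadjusted p of at most 0.05, and 23 and 11 when adjusted over the 4845 fitted genes, where 26.7% of the table genes were higher and 6.73% lower. The fitted genes were selected on p in these same samples, so the limma counts here and below carry no error rate. Adjusted over 57010 tests, limma called 0 members higher and 0 lower. After quantile normalization, counts at the unadjusted p were 25 higher and 47 lower, and with equal sample medians 25 and 46. The table genes shifted likewise, with 40.7% higher and 14.8% lower as deposited, 27.3 and 29.8% after quantile normalization, and 29.6 and 28.4% with equal medians. The members' shares were 33.9% higher and 18.2% lower as deposited, 20.7 and 38.8% after quantile normalization, and 20.7 and 38.0% with equal medians. Adjusted over the fitted genes, 12 members were higher and 23 lower after quantile normalization (11.7 and 12.5% of the table genes), and 12 and 21 with equal medians (13.2 and 11.9%). In these 3 scalings and in the authors' calls, the share of members that was higher lay under that of the table genes, and the share that was lower above it. Both SmoM2 levels lay above both WT levels for 47 members (38.8%; background 49.5%) and below them for 52 (43.0%; background 35.5%), and the groups overlapped for 22; of the table genes 85.0% had groups without overlap. The authors' deposited table gave a median log2 fold change of -0.25 over the members and of 0.23 over the table genes, with a range from -1.06 to 1.08. 18 members passed 0.5 in absolute value and 3 passed 1: Trim67, Trim59 and Fbxo36, the last not called. With 2 samples against 2, an exact two-sided permutation test of a single gene cannot give a p under 0.333.

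**Figure D1:**
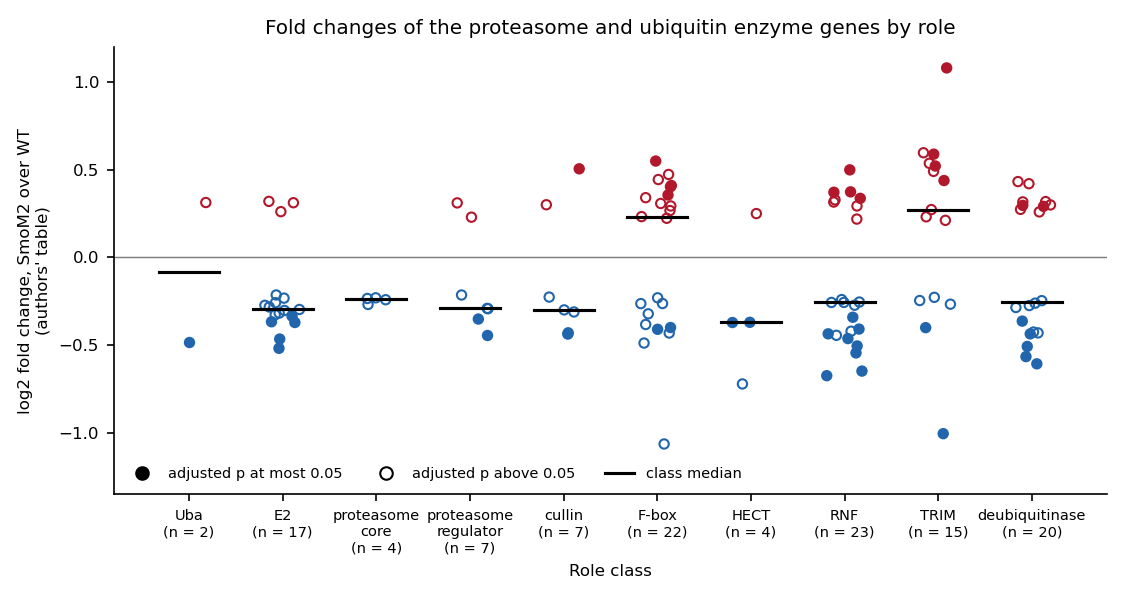
Log2 fold change of SmoM2 over WT from the authors' deposited table (vertical axis) for the 121 members by role class (horizontal axis); each point is a gene, red above and blue below 0, filled where the adjusted p is at most 0.05, and lines are class medians. The band around 0 is empty because only genes with a small unadjusted p have a row; 14 of 17 E2 genes and 9 of 11 proteasome genes lie below 0, and 10 of 15 TRIM genes above it.

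Beside the 16.9% of table genes that fell, 1 of the 2 Uba genes did, Uba3. It encodes the catalytic subunit of the enzyme that activates the ubiquitin-like protein NEDD8, which in turn switches on cullins, and had levels of 35.1 and 33.8 in SmoM2 and 41.0 and 49.6 in WT. Both SmoM2 samples lay below both WT samples, and the gene fell by 0.48 (log2, adjusted p 0.00132, authors' deposited table). Fitted with limma to log2(level + 1), a scale that understates the change of low genes and that gives all differences with a standard error (SE) here, the difference was -0.38 ± 0.12 (SE); without WT replicate 2 it was -0.24.

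Among the E2 enzymes 5 of 17 fell and none rose: Ube2v2, Ube2d3, Ube2e1, Ube2w and Ube2k. The 29.4% that fell stand beside 16.9% of the table genes, and no rise beside 22.0%. In all, 14 were lower, of which 12 of the 17 had no overlap between groups, where 35.5% of the table genes lay below WT without overlap. Ube2v2, an inactive E2 relative that pairs with Ube2n to build signalling chains, had 60.1 and 50.7 in SmoM2 and 65.8 and 81.6 in WT. It fell by 0.52 (adjusted p 0.000249, authors' deposited table), with a fitted difference of -0.40 ± 0.14 (SE) that was -0.25 without WT replicate 2. Ube2d3, an E2 that serves many RING ligases, was at 154 and 158 against 195 and 203 and fell by 0.46 (adjusted p 0.000274, authors' deposited table; fitted -0.35 ± 0.08 (SE)). The groups of both genes lay apart, and the samples of each Ube2d3 group lay close together. Ube2e1 was at 93.9 and 96.2 against 112 and 112, and Ube2w, which can attach ubiquitin to the amino terminus of a protein, at 49.6 and 50.9 against 56.5 and 54.3. The authors' deposited table gives log2 fold changes of -0.37 and -0.37, and their adjusted p 0.0236 and 0.0298. The fitted differences were smaller, -0.24 ± 0.08 (SE) and -0.14 ± 0.09 (SE). Ube2d3, Ube2e1 and Ube2w overlap exons of a gene on the other strand, and no source used here says whether reads were counted by strand.

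Ube2n, the partner of Ube2v2, which has a named pseudogene, was picked after its values were seen and was lower without a call: 134 and 129 in SmoM2 and 152 and 155 in WT (adjusted p 0.438, authors' deposited table). Ube2b, a homologue of yeast Rad6 and the E2 with the highest mean level, had 224 and 209 in SmoM2 and 212 and 219 in WT. Its groups overlapped, and the authors' deposited table gives it a log2 fold change of -0.30, which goes against the levels, whose fitted difference was 0.01 ± 0.09 (SE). Fbxo8 was the one other member with such a conflict. The 3 E2 genes on the higher side were Ube2s, which extends chains for the anaphase-promoting complex, the large E2/E3 hybrid Ube2o, and Ube2ql1. Ube2s had 185 and 179 in SmoM2 and 135 and 136 in WT. These 3 were named after their values were seen; none was called, with adjusted p from 0.0617 upward in the authors' deposited table, and their SmoM2 levels all lay above the WT levels.

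Of the 11 proteasome genes, 2 fell, none rose and 9 were not called. The 18.2% that fell stand close to the 16.9% of the table genes, and no rise stands beside 22.0%. In all, 18.2% were called against 38.9% of the table genes. Both called genes belong to parts outside the core. Psmd14, the deubiquitinase of the lid that cuts chains off substrates as they enter, had 95.4 and 96.9 in SmoM2 and 112 and 121 in WT, with no overlap. It fell by 0.35 (adjusted p 0.0391, authors' deposited table; fitted -0.27 ± 0.09 (SE)). Psme4, the activator PA200, had 12.7 and 12.4 in SmoM2 against 13.6 and 19.4 in WT and fell by 0.44 (adjusted p 0.00357, authors' deposited table). WT replicate 2 lay farther from WT replicate 1 than either SmoM2 sample did. The fitted difference of -0.35 ± 0.18 (SE) became -0.12 without WT replicate 2 and -0.59 without WT replicate 1.

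All 4 core subunits in the table, Psma1, Psma2, Psma5 and Psma6, were α-ring subunits with lower values and no call; no catalytic Psmb subunit was among the members. Psma6, the core subunit of highest level, had 187 and 209 in SmoM2 and 231 and 209.7 in WT, and its SmoM2 replicate 2 nearly met WT replicate 2. Over these 4 genes the log2 fold changes in the authors' deposited table ran from -0.27 to -0.23. The other lower genes without a call were the cap ATPase Psmc6 and the lid subunits Psmd12 and Psmd6. On the higher side were the lid subunit Psmd3, with 132 and 148 in SmoM2 and 114 and 112 in WT (adjusted p 0.363, authors' deposited table), and the interferon-inducible activator subunit Psme1, with 89.3 and 117 in SmoM2 and 82.2 and 76.3 in WT. Lid subunits thus lay on both sides. The summed level of the 11 genes was 1089 and 1185 in SmoM2 and 1235 and 1191 in WT, with SmoM2 replicate 2 close under WT replicate 2.

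Cullins are the scaffolds of the largest RING ligase family. Of 7 members, Cul7 rose, Cul5 and Cul3 fell, and the groups of all 7 lay apart. That is 14.3% risen and 28.6% fallen, beside 22.0 and 16.9% of the table genes. Of the table genes 85.0% had groups that lay apart. Cul7, an atypical cullin, had 22.0 and 24.1 in SmoM2 and 16.6 and 13.4 in WT and rose by 0.51 (adjusted p 0.00169, authors' deposited table; fitted 0.59 ± 0.15 (SE)). Its relative Cul9 was the other member on the higher side and was not called. Cul3, which works with BTB-domain adaptors, had 71.1 and 57.5 in SmoM2 and 77.5 and 89.4 in WT and fell by 0.43 (adjusted p 0.00338, authors' deposited table). Cul5, which works with SOCS-box adaptors, had 12.9 and 11.3 against 13.8 and 15.9 and fell by 0.44 (adjusted p 0.00609, authors' deposited table). The fitted differences were -0.37 ± 0.14 (SE) for Cul3, or -0.22 without SmoM2 replicate 2, and -0.27 ± 0.15 (SE) for Cul5, or -0.18 without WT replicate 2. Cul1, the scaffold to which F-box proteins bind, had 69.1 and 74.7 in SmoM2 and 79.0 and 86.0 in WT and was not called (adjusted p 0.103, authors' deposited table). Cul1, Cul2, Cul3, Cul4b and Cul5 were all lower in SmoM2, and the atypical Cul7 and Cul9 higher; the 2 sets were named after their values were seen.

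The 22 F-box genes divided almost evenly, 12 higher and 10 lower, with 3 that rose (13.6%) and 2 that fell (9.09%), both below the 22.0 and 16.9% of the table genes. Fbxl19, which binds unmethylated CpG islands, had 75.4 and 70.7 in SmoM2 and 45.1 and 49.5 in WT and rose by 0.55 (adjusted p 3.85e-05, authors' deposited table; fitted 0.62 ± 0.10 (SE)). Fbxw9 rose as well, with 41.5 and 45.9 against 29.7 and 32.6 (log2 fold change 0.41, adjusted p 0.0227, authors' deposited table), and so did Fbxo41. In Fbxl19 and Fbxw9 the lower SmoM2 sample stood above the higher WT sample by more than the WT samples differed. Fbxw7, the receptor that marks cyclin E, Myc and Notch for destruction, had 91.5 and 97.9 in SmoM2 and 108 and 124 in WT and fell by 0.40 (adjusted p 0.00487, authors' deposited table). Fbxo28 had 15.9 and 17.9 against 19.4 and 24.2 and fell by 0.41 (adjusted p 0.0112, authors' deposited table). Both differences shrank without WT replicate 2, to -0.18 from -0.29 ± 0.11 (SE) for Fbxw7 and to -0.19 from -0.35 ± 0.15 (SE) for Fbxo28. Fbxw5, at the highest level of the family, had 119 and 116 in SmoM2 and 91.1 and 101 in WT and was not called. By substrate-binding domain, 5 of 6 Fbxw genes (WD40 repeats), 3 of 5 Fbxl genes (leucine-rich repeats) and 4 of 11 Fbxo genes (other domains) were on the higher side.

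In the RNF class, the largest, 4 of 23 genes rose and 8 fell. The 17.4% that rose lie below the 22.0% of the table genes, and the 34.8% that fell above their 16.9%. Rnf170, a ligase of the endoplasmic reticulum that acts on inositol trisphosphate receptors, had 8.17 and 8.80 in SmoM2 and 12.1 and 12.95 in WT and fell by 0.67 (adjusted p 0.000198, authors' deposited table; fitted -0.51 ± 0.14 (SE)). A gene model on its own strand shares its exons, and a named pseudogene exists. Rnf138 had 9.41 and 9.14 against 13.4 and 13.5 and fell by 0.65 (adjusted p 0.00346, authors' deposited table; fitted -0.49 ± 0.13 (SE)). Rnf13, a membrane-bound ligase of endosomes, had 42.03 and 43.8 against 57.0 and 60.4 (log2 fold change -0.54, adjusted p 7.33e-05, authors' deposited table). Rnf115 had 44.8 and 46.3 against 57.7 and 64.4 (log2 fold change -0.50, adjusted p 0.000358, authors' deposited table). In these 4 genes the distance between groups exceeded the distance within either group, and no single library moved the fitted difference by over 1.5 times. Also lower and called were Rnf169, Rnf6, Rnf11 and Rnf2, the last a Polycomb ligase whose groups overlapped (20.2 and 24.8 in SmoM2, 21.1 and 26.8 in WT) and whose fitted difference of -0.09 ± 0.16 (SE) was 0.05 without SmoM2 replicate 1 and 0.08 without WT replicate 2. Rnf187, the member of highest level in the class, had 518 and 534 in SmoM2 and 391 and 399.7 in WT and rose by 0.34 (adjusted p 0.0115, authors' deposited table; fitted 0.41 ± 0.08 (SE)). Rnf126, Rnf208 and Rnf123 rose too. Of these, Rnf126, a cytosolic quality-control ligase named after its values were seen, had 121 and 128 against 77.8 and 83.5; an exon of Fgf22 lies across it on the other strand.

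Among the TRIM genes 10 of 15 were higher, 4 rose (26.7%, against 22.0% of the table genes) and 2 fell (13.3%, against 16.9%). Trim67, a neuronal TRIM protein, had 6.49 and 4.96 in SmoM2 and 2.68 and 2.57 in WT, the largest fold change of any member on the higher side, and rose by 1.08 (adjusted p 3.61e-11, authors' deposited table; fitted 0.88 ± 0.20 (SE)). The spread was wider in SmoM2 than in WT, and both SmoM2 samples stood well clear of WT; Gm16163 shares exon bases with Trim67 on the same strand. Trim62 had 20.4 and 20.1 against 12.4 and 13.2 and rose by 0.59 (adjusted p 0.000143, authors' deposited table). Trim46, which bundles microtubules at the start of the axon, had 76.5 and 81.5 against 49.5 and 53.5 and rose by 0.52 (adjusted p 0.000153, authors' deposited table); Krtcap2 overlaps it on the other strand. Trim8 was the fourth that rose. Trim59 had 3.24 and 3.06 in SmoM2 and 5.02 and 6.27 in WT and fell by 1.00 (adjusted p 0.000524, authors' deposited table; fitted -0.67 ± 0.19 (SE)), and its SmoM2 samples lay close together. Trim23 fell as well (adjusted p 0.0108 in the authors' deposited table), with a fitted difference of -0.30 ± 0.14 (SE) that was -0.14 without WT replicate 2 and -0.47 without WT replicate 1. Trim37, a ligase that limits centriole assembly and the TRIM gene of highest level, had 108 and 102 in SmoM2 and 111 and 125 in WT and was not called.

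Of the 4 HECT-class genes, 2 fell by the authors' adjusted p, Herc3 and Ube3a, and none rose. Of the table genes 16.9% fell and 22.0% rose. The levels of both Herc3 and Ube3a overlapped between groups. In all, 3 of the 4 HECT-class genes had such an overlap, while 85.0% of the table genes had groups that lay apart. Herc3 had 114 and 125 in SmoM2 and 115 and 135 in WT; the log2 fold change was -0.37 (adjusted p 0.00991) in the authors' deposited table and the fitted difference only -0.06 ± 0.11 (SE). That difference turned to 0.01 without SmoM2 replicate 1 and 0.06 without WT replicate 2, and was -0.13 without SmoM2 replicate 2 and -0.17 without WT replicate 1. Ube3a, the imprinted Angelman syndrome gene, was named after its values were seen: it had 13.5 and 10.8 in SmoM2 and 12.3 and 18.6 in WT (log2 fold change -0.37, adjusted p 0.0236, authors' deposited table). WT replicate 2 stood apart from the other 3 samples; the fitted difference of -0.30 ± 0.22 (SE) was -0.02 without it, -0.58 without WT replicate 1 and -0.16 without SmoM2 replicate 2. Its antisense partner Snhg14 overlaps its exons, and without a stated strand setting their reads cannot be told apart.

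Deubiquitinases were split, with 9 of 20 higher, 11 lower, 2 that rose and 5 that fell. The 35.0% called lie near the 38.9% of the table genes, of which 22.0% rose and 16.9% fell, and the levels of 7 of the 20 overlapped between groups. Uchl1, one of the most abundant neuronal proteins and the member with the highest level of all 121, had 1473 and 1549 in SmoM2 and 1226 and 1124 in WT and rose by 0.29 (adjusted p 0.0307, authors' deposited table; fitted 0.36 ± 0.10 (SE)). Both SmoM2 samples stood above both WT samples; the antisense gene Uchl1os overlaps it. Usp22, the deubiquitinase of the SAGA chromatin complex, was the second that rose. Both deubiquitinases that dock on the proteasome and were members fell: Uchl5 and Usp14. Uchl5 had 29.4 and 31.0 in SmoM2 and 39.5 and 44.7 in WT and fell by 0.57 (adjusted p 0.000883, authors' deposited table; fitted -0.46 ± 0.11 (SE)). Usp14, named after its values were seen, had 93.5 and 115 against 124 and 138 (log2 fold change -0.36, adjusted p 0.0178, authors' deposited table); its fitted difference was -0.33 ± 0.13 (SE), or -0.18 without SmoM2 replicate 1, and Thoc1 overlaps it on the other strand. The levels of both genes lay apart between the groups.

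Otud7b, an OTU-domain deubiquitinase also known as Cezanne, had 5.98 and 3.90 in SmoM2 and 7.81 and 7.07 in WT and fell by 0.61 (adjusted p 0.000389, authors' deposited table). SmoM2 replicate 2 was the lowest sample, and without it the fitted difference of -0.53 ± 0.22 (SE) became -0.27. Usp45 had 6.77 and 7.66 against 8.33 and 10.2 and fell by 0.51 (adjusted p 0.00729, authors' deposited table), and Usp54 had 10.4 and 10.5 against 12.8 and 11.1 and fell by 0.44 (adjusted p 0.0177, authors' deposited table). The SmoM2 samples lay below the WT samples in both, by a narrow margin. Usp45 had a fitted difference of -0.32 ± 0.17 (SE), or -0.19 without WT replicate 2, and Usp54 one of -0.17 ± 0.14 (SE), or -0.07 without WT replicate 1 and -0.27 without WT replicate 2; both overlap exons on the other strand.

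**Figure D2:**
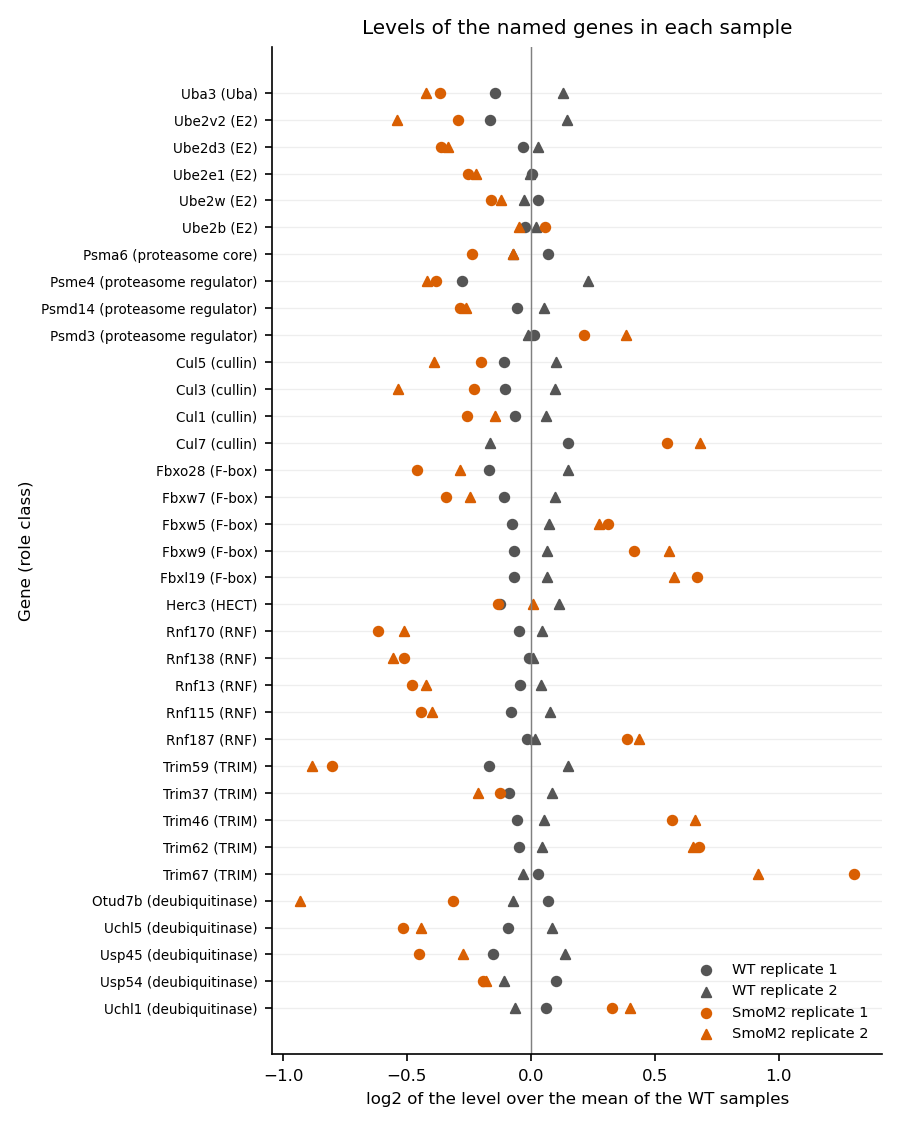
Level of 35 genes named by rule in each sample (horizontal axis, log2 of the level over the WT mean) by gene and role class (vertical axis); grey marks are WT, orange marks SmoM2, circles replicate 1 and triangles replicate 2. Fbxl19, Trim62 and Trim46 stand clear on the right and Rnf170, Rnf138 and Trim59 on the left, while the samples of Ube2b and Herc3 interleave.

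The median fitted difference was -0.14 over the 121 members, against 0.25 over the table genes. By division it was -0.20 for E2 genes, -0.19 for proteasome genes, -0.08 for E3 genes and -0.07 for deubiquitinase genes. The last 2 medians have no firm sign: without WT replicate 2 they were 0.06 for E3 genes and 0.10 for deubiquitinase genes, without SmoM2 replicate 1 the latter was 0.01, and without WT replicate 1 it was -0.20. Without WT replicate 2 the median was -0.04 over all members and -0.11 over E2 genes. That library was the highest of the 4 for 50 of the 73 lower members, and WT replicate 1 for 20 of them. It also stood above WT replicate 1 for 53 of the 73 lower members and for 30 of the 48 higher ones. Of the 43 called members, 41 kept the sign of the fitted difference when any 1 library was left out, and Herc3 and Rnf2 did not.

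The side on which a member lay went with the base composition of its transcript, with 5 exceptions to a boundary at 50% G and C. In the longest coding transcript of each member, the share of G and C was 58.0% at the median for the 48 higher members (range 43.6 to 64.1%) and 43.2% for the 73 lower ones (35.1 to 50.6%). All 29 members under 42% were lower, and all 38 at or above 54% were higher. Of 28 members between 42 and 46%, 27 were lower, with Usp29 the exception, and of 15 between 46 and 50%, 14 were lower, with Trim25 the exception. Between 50 and 54%, 8 were higher, and Rnf122, Rnf169 and Fbxo36 were lower. The other table genes followed the same order: 96.3% of 703 were lower in the lowest bin, then 91.2% of 770, 67.2% of 555, 29.2% of 551 and 5.44% of 1801 in the highest. The rank correlation of G and C content with the log2 fold change of the authors' deposited table was 0.76 over the 121 members (Pearson 0.83) and 0.65 over 4380 other table genes (344 had no value), as descriptions across genes that share the same 4 libraries. Selection on p leaves few values near 0, so these correlations include the gap between higher and lower genes.

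**Figure D3:**
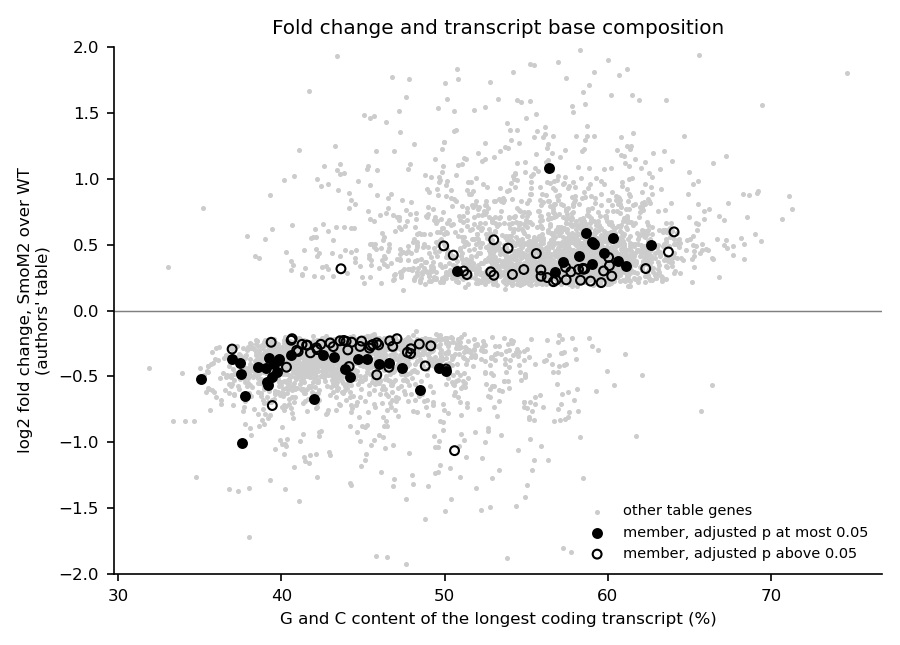
G and C content of the longest coding transcript (horizontal axis, %) against the log2 fold change of SmoM2 over WT from the authors' deposited table (vertical axis); black points are the 121 members, filled where the adjusted p is at most 0.05, and grey points are 4340 other table genes, with 40 more beyond the axis limits. Members at or above 54% all lie above 0 and those under 42% all lie below it.

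The split held inside each role class except the deubiquitinases. The 14 lower E2 genes ran from 35.1 to 47.9% and the 3 higher ones from 58.2 to 60.2%. Lower F-box genes ran from 39.8 to 50.6% and higher ones from 53.0 to 63.7%. In the cullins the ranges were 38.5 to 44.1% and 59.1 to 59.7%, and in the TRIM genes 37.4 to 45.8% and 49.9 to 64.1%. Among the proteasome genes the 9 lower members reached at most 49.2%, while Psme1 had 54.9% and Psmd3 58.3%. In the deubiquitinases the ranges met because of Usp29 at 43.6%. Within the higher members alone the rank correlation was 0.25 (n = 48), and within the lower members alone it was 0.18 (n = 73). For the other table genes it was 0.01 on the higher side (n = 2369) and 0.07 on the lower (n = 2011). Taking 1 side of a table selected on p narrows the range of both measures, so these values cannot be set against those over both sides. Base composition also varied with the difference between replicates: over the 121 members its rank correlation was -0.30 with the ratio of WT replicate 2 to WT replicate 1 and 0.17 with that of SmoM2 replicate 2 to SmoM2 replicate 1. Its part in the fold changes was not tested.

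The median composition differed between the sides in each part of the transcript, with ranges that overlapped. Before the RefSeq start the medians were close over the pooled members but not within each division. At the third codon position, where most changes leave the protein as it is, the median was 70.2% in the higher members (range 47.9 to 86.2%) and 45.7% in the lower ones (31.0 to 71.4%). At the first 2 positions it was 52.9% (43.1 to 63.9%) and 45.1% (38.0 to 55.5%), and in the untranslated parts 56.6% (36.6 to 68.3%) and 41.5% (30.2 to 53.3%). The 250 bases before the RefSeq start, known for 90 of the 121 members (36 higher, 54 lower), had medians of 62.0 and 62.8%. That start lay over 500 bases from the GENCODE start of the gene in 13 of the 90, up to 25038 bases in Trim28; in the other 77 the medians were 62.0% in 31 higher and 63.0% in 46 lower members. By division the G and C medians of the window differed, in opposite directions. They were 62.0% in 26 higher and 58.0% in 27 lower E3 genes, and 66.8% in 1 and 58.4% in 9 proteasome genes. In deubiquitinase genes they were 51.2% in 7 higher and 69.6% in 6 lower members, and in E2 genes 64.4% in 2 and 71.6% in 11. CpG pairs in the window numbered 14.5 and 17 at the median over the 90. Transcript length was 3484 bases at the median in the higher and 3931 in the lower members, while the untranslated part was 808 and 2341 bases.

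**Figure D4:**
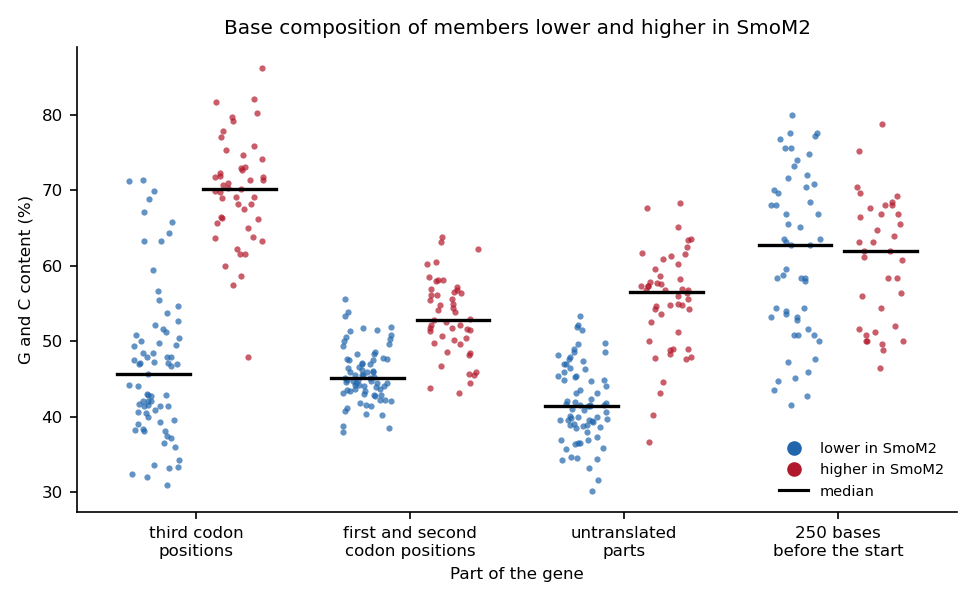
G and C content (vertical axis, %) of parts of the gene (horizontal axis) for members lower (blue) and higher (red) in SmoM2; each point is a gene and lines are medians. The medians lie apart in the transcript, 70.2 against 45.7% at the third codon position. In the 250 bases before the start they lie at 62.0 and 62.8%, pooled over the role classes.

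A pair of promoter motifs was searched in the same 250 bases on both strands, taken from RefSeq on GRCm38.p6. TGACNNNGC, the core of the antioxidant response element through which proteasome genes can be induced, was found in 11 of the 90 members (12.2%) and in 10.2% of 27025 promoters. It was found in 2 of 10 proteasome genes, Psmc6 and Psmd12. CCAAT was found in 22.2% of the members and 34.3% of all promoters, and in 4 of 10 proteasome genes. The motifs can share end letters, and each was searched on its own.

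Genes around these enzymes, from lists of pathway partners, had rows in part. Ubb, a polyubiquitin gene, had 2870.5 and 3463 in SmoM2 and 2552 and 2606 in WT, higher in both SmoM2 samples, and was not called (adjusted p 0.149, authors' deposited table). Of 11 proteasome partners 1 had a row, the ubiquitin receptor Adrm1, which rose (108 and 120.1 against 85.3 and 86.4, adjusted p 0.0490, authors' deposited table), although Uchl5, which docks on it, fell. Of 32 cullin adaptors and controls 7 had rows; none rose and 4 fell (57.1% of the rows, against 16.9% of the table genes), Skp1, Crbn, Eloc and Cops2. The last 2 had overlapping levels, and without WT replicate 2 their fitted differences turned from -0.15 to 0.21 for Eloc and from -0.23 to 0.05 for Cops2. Skp1, which links F-box proteins to Cul1, had 541 and 578 in SmoM2 and 622 and 682 in WT and fell by 0.30 (adjusted p 0.0430, authors' deposited table). Crbn, a substrate receptor of the Cul4 ligases, had 38.5 and 37.5 against 43.6 and 49.9 and fell by 0.37 (adjusted p 0.0361, authors' deposited table). Of 59 other E3 genes 30 had rows, 16 higher and 14 lower; 2 rose, Mib2 and Fzr1, and 5 fell, Xiap, Itch, Mib1, Cdc27 and Pja2. That is 6.67% of the rows risen and 16.7% fallen, against 22.0 and 16.9% of the table genes. The levels of Cdc27 overlapped between groups, with a fitted difference of -0.28 that was -0.14 without SmoM2 replicate 2, -0.13 without WT replicate 2 and -0.43 without WT replicate 1. The difference of Mib1 went from -0.41 to -0.17 when WT replicate 2 was left out, or to -0.65 when WT replicate 1 was, and Itch went from -0.29 to -0.16 in the first case. Fzr1, an activator of the anaphase-promoting complex, had 65.5 and 71.0 in SmoM2 and 43.9 and 48.5 in WT and rose by 0.52 (adjusted p 0.000204, authors' deposited table), while Xiap, an inhibitor of apoptosis, had 22.4 and 20.4 against 23.8 and 27.5 and fell by 0.42 (adjusted p 0.00520, authors' deposited table), with a fitted difference of -0.25 ± 0.13 (SE) that was -0.15 without WT replicate 2. Of 20 other deubiquitinases 6 had rows. None of the 6 rose, where 22.0% of the table genes did. Beside the 16.9% of table genes that fell, 3 of the 6 did, Brcc3, Vcpip1 and Zranb1. Without WT replicate 2 their fitted differences went from -0.20 to -0.095, from -0.31 to -0.20 and from -0.27 to -0.088, and without WT replicate 1 those of Brcc3 and Zranb1 were -0.31 and -0.46. 2 of 18 p97 and shuttle factors had rows, and neither was called, where 38.9% of the table genes were.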

How the data were processed

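RNA of 2 SmoM2 and 2 WT samples went into TruSeq libraries of Illumina, per the labels' protocols. RSEM, DESeq2 and the build GRCm38.p6 were used by the authors, per the submitters' processing notes, which give no version and no role; the aligner and any strand setting are not given in the sources used here. The deposited table gives, per gene, a level per sample (a length- and library-scaled signal), the authors' fold change as a ratio and as log2, and p-values before and after adjustment. The latter fit a Benjamini-Hochberg adjustment over 57010 tests. Read counts were not used here, so the design's branch for a table of selected levels applied: calls come from the authors' deposited table at an adjusted p of at most 0.05, and no set test was run. limma 3.58.1 in R 4.3.3, with a mean-variance trend on log2(level + 1) over the 4845 genes that passed the minimum mean level of 1, gave the differences and their SE. The steps were tested on simulated data, in which all genes had the same noise and none was selected on p. That test therefore does not show whether the SE or the adjusted calls hold for the selected genes fitted here. Base composition was read from the longest coding transcript of GENCODE M21, and promoters from RefSeq on GRCm38.p6.

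Genes were named by rule: in each role class up to 4 called members with no overlap and the largest fold change, plus the member of highest level; from each partner list up to 2 called genes. Some genes that the rule names are not reported here. Other names were chosen after their values were seen, and the members and lists were chosen with earlier results of these data known. Markers covered 10 cell types, and summed levels are over the markers with a row, in SmoM2 against WT. Of 4 oligodendrocyte precursor markers 3 had rows and 2 rose, Cspg4 and Ptprz1 (sum 114 and 98.3 against 75.8 and 79.8). Of 5 microglial markers 4 had rows and P2ry12 fell, with overlapping levels (255 and 221 against 189.7 and 199.7). All 5 endothelial markers had rows; Cldn5, Cdh5 and Kdr rose and Ly6c1 fell (255 and 177 against 236 and 193). Of 5 astrocyte markers 3 had rows; Gfap and Aqp4 rose, and Aldoc, not called, has most of the sum (866 and 842 against 956 and 785). Of 5 interneuron markers 3 had rows; Sst, which has most of the sum, rose, and Pvalb and Vip fell (748 and 867 against 693 and 614). Of 5 cortical excitatory neuron markers 3 had rows; Cux2 rose and Neurod6 fell (148 and 154 against 172 and 185).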

Additional observations from a re-analysis of the deposited data

How the results depend on the processing

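The calls rest on the authors' deposited table. At an adjusted p of at most 0.01 there, 7 members rose and 17 fell in place of 14 and 29. The shares of the table genes at that threshold are not given here, so these 2 counts have no background. limma on the log2 levels, adjusted over 57010 tests, called 0 higher and 0 lower members, with 41 and 22 at an unadjusted p of at most 0.05 and 23 and 11 when adjusted over the 4845 fitted genes, a balance opposite to that of the authors' calls. Chosen after seeing the data, the same counts after quantile normalization were 25 and 47 unadjusted and 12 and 23 adjusted, and with equal medians 25 and 46, and 12 and 21, so the balance turns with the scaling. Counts that are unadjusted or adjusted over the fitted genes carry no error rate, because those genes were selected on p in these samples. Deviations of same-numbered samples correlated at -0.09 over 4845 genes, and no label pairs the numbers. With the replicate number as a block, limma adjusted over 57010 tests called 0 and 0 members. At the unadjusted p, 35 members were higher and 18 lower (28.9 and 14.9%, against 37.2 and 12.4% of the table genes). Adjusted over the fitted genes, 18 were higher and 5 lower (14.9 and 4.13%, against 17.4 and 4.29%). In this last count the share of members that was lower lay just under that of the table genes. Quantile normalization and equal medians moved the median of all table genes from 0.25 to 0.13 and 0.16, and the members moved with it: the median difference became -0.22 and -0.23 over all members, -0.32 and -0.30 for E2, -0.18 and -0.17 for E3, -0.14 and -0.16 for deubiquitinase and -0.32 and -0.29 for proteasome genes. In the same 2 settings 41 and 45 members lay above WT without overlap and 66 and 68 below, and 2 members, neither of them called, changed sign. The shares of the table genes without overlap in these settings are not given here, so these counts have no background. The authors' deposited log2 fold change gave medians of -0.25, -0.30, -0.23 and -0.25 for all, E2, E3 and deubiquitinase genes; it ran below the level ratio by 0.08 at the median over table genes. Leaving out 1 library gave ranges of -0.17 to -0.044 over all members, -0.23 to -0.11 for E2, -0.089 to 0.060 for E3, -0.20 to 0.10 for deubiquitinase and -0.26 to -0.14 for proteasome genes; called members whose levels kept their sign numbered 14 higher and 27 to 29 lower. Herc3 changed sign, to 0.01 without SmoM2 replicate 1 and 0.060 without WT replicate 2. 15 of the 43 called members moved by over 1.5 times without some library, 12 of them without WT replicate 2. Of the 324 values of named members under other settings, 273 moved by less than the replicate spread. Pseudocounts of 0.1 and 5, and minimum levels of 5 or none, kept every median's sign and every count within 1.5 times. The depth is unknown, so precision rests on 2 samples a group, and genes with no row were not analysed here.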

Other observations

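Ubiquitin-like modifiers lay mostly on the lower side. Of 34 genes listed for SUMO, NEDD8, UFM1, ISG15 and autophagy conjugation, 15 had rows; 14 were lower and 4 fell, among them Nae1, Ranbp2 and Dcun1d1, 26.7% of the rows against the 16.9% of table genes that fell. Nae1, the partner of Uba3 in the enzyme that activates NEDD8, had levels of 33.4 and 31.5 in SmoM2 and 39.5 and 44.8 in WT and fell by 0.41 (adjusted p 0.0250, authors' deposited table; fitted -0.37 ± 0.11 (SE)), so that both subunits of that enzyme fell. The levels of Ranbp2 and of Dcun1d1, a ligase for NEDD8 on cullins, overlapped between groups; the fitted difference of Ranbp2 went from -0.24 to -0.034 when WT replicate 2 was left out, or to -0.45 when WT replicate 1 was, while Dcun1d1 had one of 0.03, which goes against its fold change in the authors' deposited table. Sae1, a subunit of the SUMO-activating enzyme, was the 1 gene on the higher side, with 135 and 151 in SmoM2 and 109 and 109.8 in WT and no call (adjusted p 0.0744, authors' deposited table). Its transcript has 51.5% G and C, against 40.4% in Nae1.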
